A study of Mus musculus with 6 samples.

Results

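The miR-192, miR-194 and miR-215 microRNAs (miRNAs) of the mouse come from 4 short RNA hairpins in 2 clusters, and 6 of their mature arms are described here in the renal cortex. They are mmu-miR-192-5p, mmu-miR-192-3p, mmu-miR-194-5p, mmu-miR-194-2-3p, mmu-miR-215-5p and mmu-miR-215-3p (mmu for the mouse, left out below), chosen by name, 6 of 1900 distinct mature names in the tables. They occupied 7 rows, because miR-194-5p is listed once under each of its 2 hairpins. The other 3p arm, miR-194-1-3p, was set beside them because it is made by the second miR-194 hairpin alone. Small RNA was sequenced from C57BL/6 mice in 2 groups of 3. The first group received tofogliflozin, an inhibitor of the proximal tubule glucose transporter SGLT2, for 8 weeks in a diet that the labels call HF/HC/HS/BA, rich in fat and cholesterol and holding bile salt. The second group received the same diet without the drug for 8 weeks, so both groups ate the diet and no mouse on ordinary chow is compared here. The age and sex of the mice were not given in the labels used here. The design text gives n = 3 for each group without saying that each library is 1 mouse, so the p-values measure the spread between these libraries.

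Mature miRNAs are strands of hairpins that load into Argonaute proteins and repress messenger RNAs paired to the seed, bases 2 to 8 of the strand. One arm of a hairpin is usually kept and the other degraded. miR-192 and miR-194 are abundant in kidney, liver and gut epithelium, where hepatocyte nuclear factors drive their genes. The same genes are known to be induced by p53, and in kidney cells miR-192 is known to respond to TGF-β and to repress the transcription repressors Zeb1 and Zeb2.

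The mature sequences, from RefSeq (GRCm38.p6, the build named mm10), are shown with the seed in capitals because the seed sets which members can share targets. All 6 members matched the RefSeq table.
miR-192-5p: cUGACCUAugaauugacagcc
miR-215-5p: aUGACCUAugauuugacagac
miR-194-5p: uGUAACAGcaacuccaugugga
miR-194-2-3p: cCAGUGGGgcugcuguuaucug
miR-194-1-3p: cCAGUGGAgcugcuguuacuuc
miR-192-3p: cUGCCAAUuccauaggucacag
miR-215-3p: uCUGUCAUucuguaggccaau
miR-192-5p and miR-215-5p carried 1 seed and were its 2 bearers among 1679 mature names in that table. Over their 21 bases they differed at 3 positions, C1A, A12U and C20A, counted from the 5′ end with the miR-192-5p base first. miR-194-5p stood alone with its seed. The 3p arms of the 2 miR-194 hairpins differed at 4 of 22 positions, G8A, U19C, C20U and G22C with the miR-194-2-3p base first, and the first of these lies in the seed. The other bearers of the miR-194-2-3p seed, miR-6926-5p and miR-7055-5p, had 0 counts in each of the 6 libraries.

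The hairpins themselves are shown because they tell which reads can belong to which locus, with both mature arms in capitals.
Mir194-2: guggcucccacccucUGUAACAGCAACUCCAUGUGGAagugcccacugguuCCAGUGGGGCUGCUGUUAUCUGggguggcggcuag
Mir192: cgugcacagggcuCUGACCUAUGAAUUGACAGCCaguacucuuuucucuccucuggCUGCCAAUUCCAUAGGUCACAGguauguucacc
Mir194-1: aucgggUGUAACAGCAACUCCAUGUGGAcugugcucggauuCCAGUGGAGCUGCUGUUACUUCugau
Mir215: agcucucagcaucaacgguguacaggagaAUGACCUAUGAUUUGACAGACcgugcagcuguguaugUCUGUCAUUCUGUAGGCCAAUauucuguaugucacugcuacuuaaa
Mir194-2 lies on the plus strand at chr19:6264643-6264728 and Mir192 follows 115 bases later at chr19:6264844-6264932. GENCODE M21 places both outside any other gene, between Atg2a and Gm14963. Mir194-1 lies on the plus strand at chr1:185313319-185313385 and Mir215 follows 195 bases later at chr1:185313581-185313692. Both of these are antisense to an intron of Iars2, and they lie in the noncoding gene 2010103J01Rik on their own strand, Mir194-1 in an intron and Mir215 over an exon.

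**Figure D1:**
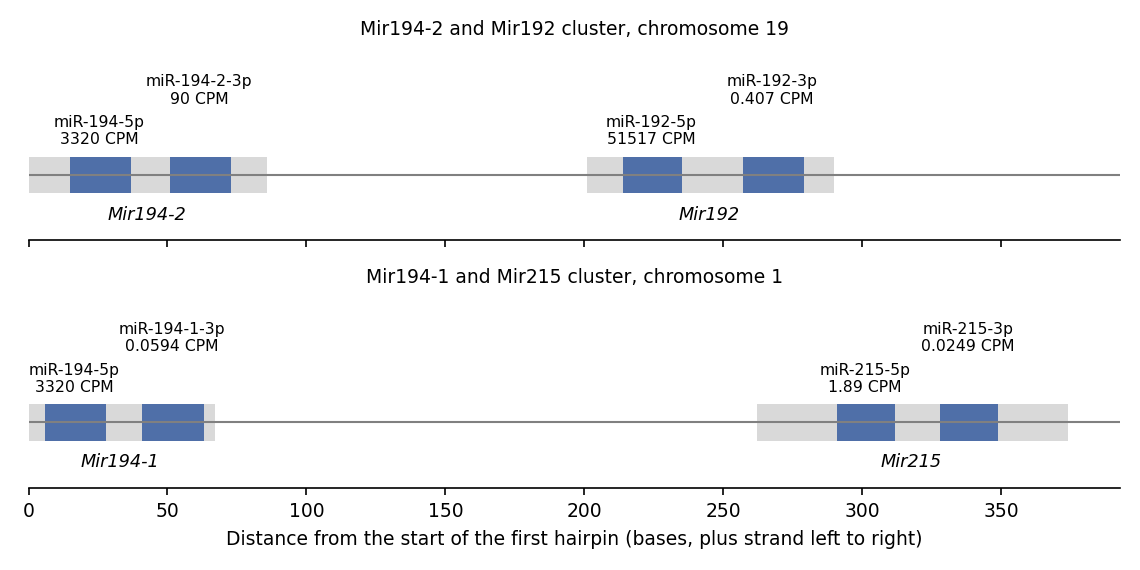
The 2 clusters drawn to scale, with distance in bases from the start of the first hairpin on the x axis, hairpins in grey, mature arms in blue, and the mean level of each arm over 6 libraries in counts per 1000000 (CPM). miR-194-5p has the same sequence in both clusters, so its 3320 CPM is printed at both. The arms that belong to 1 locus alone are at 51517, 90.0 and 0.407 CPM on chromosome 19 and at no more than 1.89 CPM on chromosome 1.

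Libraries held 6643638 to 22886200 counts when each mature name was counted from its largest row, and tofogliflozin replicate 2 held the fewest. That library also stood apart from the other 5 on the first principal component, which took 52.0% of the variance of log2 CPM over 460 tested miRNAs, with a score of -13.8 against -0.141 to 6.17 in the others. Values of the members and of the named list miRNAs that rest on it are given with and without it. The kidney label was set against renal tubule miRNAs, whose 14 markers summed to 226815 to 306564 CPM in tofogliflozin libraries and 243755 to 264489 CPM in diet-only libraries. This sum was highest in tofogliflozin replicate 2 and lowest in tofogliflozin replicate 3. The largest parts of that sum were miR-10a-5p, at 82722 to 94951 CPM, and miR-10b-5p, at 60615 to 69513 CPM. Little of it was miR-204-5p, at 250 to 492 CPM, or miR-211-5p, at no more than 0.597 CPM. Whether the sum tells tubule from other cells was not tested.

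mmu-miR-192-5p, the dominant product of the chromosome 19 cluster, was by far the most abundant member and ranked 5 by mean level among 460 tested miRNAs. It stood at 53531, 53837 and 44711 CPM in tofogliflozin replicates 1, 2 and 3, and at 54110, 52485 and 50428 CPM in diet-only replicates 1, 2 and 3. Tofogliflozin replicate 3 was the lowest library and the other 5 lay close together, so the groups overlapped. The means were 50693 ± 5183 CPM with tofogliflozin and 52341 ± 1845 CPM on the diet alone (SD, n = 3 each). The log2 fold change was -0.05 ± 0.11 (SE), with a 95% interval of -0.30 to 0.21, which allows folds between 0.811 and 1.16. edgeR's quasi-likelihood test gave an adjusted p of 0.969, and the exact 2-sided permutation test of log2 CPM gave p = 0.8, where 3 against 3 libraries cannot go below 0.1. Without tofogliflozin replicate 3 the log2 fold change was 0.06. In bulk cortex, fewer cells of a type and less RNA per cell cannot be told apart.

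mmu-miR-194-5p, the arm that both clusters encode, ranked 34. Its levels were 3347, 2614 and 3598 CPM with tofogliflozin and 3709, 3243 and 3411 CPM on the diet alone, for replicates 1, 2 and 3 of each group. Tofogliflozin replicate 2 was the lowest, and the other 2 tofogliflozin libraries lay within the diet-only range. Means were 3186 ± 511 CPM with tofogliflozin and 3454 ± 236 CPM on the diet alone (SD, n = 3 each). The log2 fold change was -0.12 ± 0.14 (SE; 95% interval -0.44 to 0.21; adjusted p = 0.877 by edgeR; exact permutation p = 0.6). Without tofogliflozin replicate 2 it was 0.01.

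mmu-miR-194-2-3p, the opposite arm of the chromosome 19 hairpin, ranked 139 at 83.3, 112 and 73.8 CPM with tofogliflozin and 93.9, 92.3 and 84.5 CPM on the diet alone. Here tofogliflozin replicate 2 was the highest library, and replicates 1 and 3 of that group were the lowest. The group means were 89.8 ± 20.1 CPM with tofogliflozin and 90.2 ± 5.03 CPM on the diet alone (SD, n = 3 each). The log2 fold change was -0.01 ± 0.19 (SE; 95% interval -0.44 to 0.42; adjusted p = 0.996 by edgeR; exact permutation p = 0.9), -0.20 without tofogliflozin replicate 2 and 0.14 without tofogliflozin replicate 3. Its direction turned above 0 under several other settings as well.

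mmu-miR-215-5p, the seed relative of miR-192-5p from chromosome 1, was a rare miRNA at rank 360. It had 31, 15 and 22 counts with tofogliflozin and 32, 22 and 40 counts on the diet alone. These equal 2.29, 2.24 and 1.22 CPM with tofogliflozin, against 1.41, 1.61 and 2.60 CPM on the diet alone. High and low libraries occurred in both groups. Its log2 fold change was 0.01 ± 0.41 (SE; 95% interval -0.94 to 0.96; adjusted p = 0.996 by edgeR; exact permutation p = 1), so folds between 0.522 and 1.94 were not excluded at this depth. The direction turned below 0 with upper quartile scaling, with no low-count filter, with limma-voom and with 4 of the 6 libraries left out in turn.

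The remaining arms were near or below the limit of detection and did not pass the filter on low counts. miR-192-3p had 8, 0 and 11 counts with tofogliflozin and 9, 8 and 4 counts on the diet alone. For miR-215-3p, 1 count was recorded in tofogliflozin replicate 2 and 0 in the other 5 libraries. miR-194-1-3p had 0, 0 and 3 counts with tofogliflozin and 1, 2 and 0 on the diet alone. With 3 counts as the limit that a 0 allows, the level could be as high as 0.132 CPM in the deepest library and 0.447 CPM in the shallowest, counting error alone considered.

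**Figure D2:**
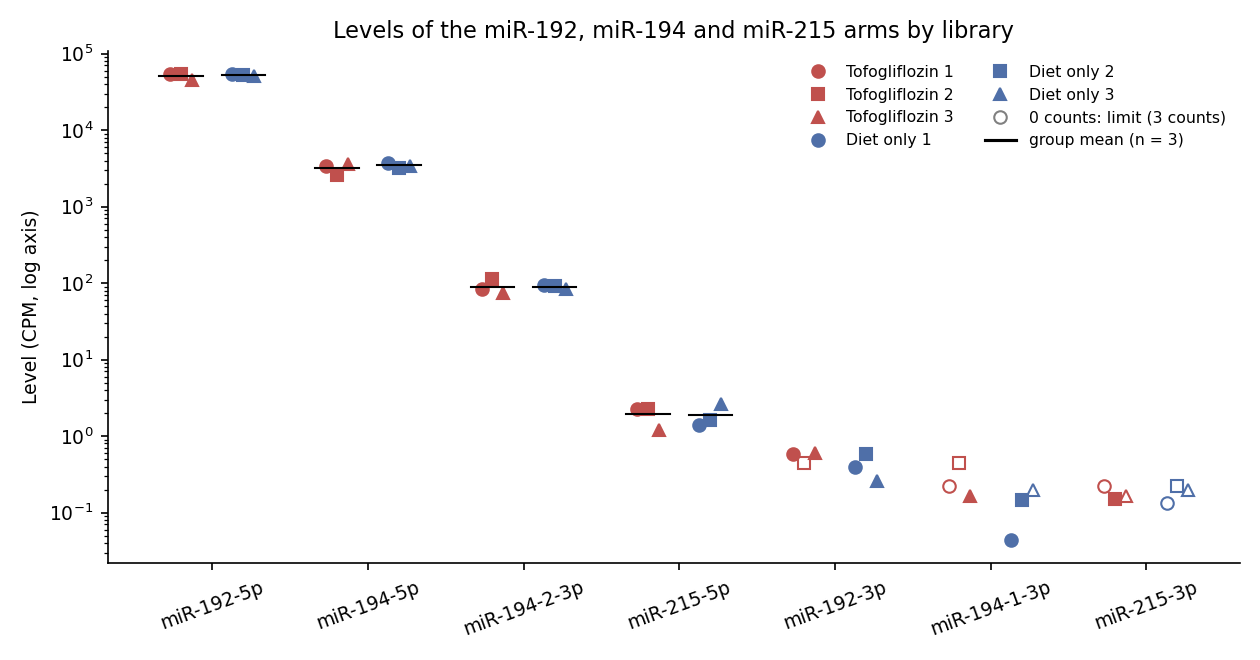
Level of each arm in each library, in CPM on a log axis, with tofogliflozin libraries in red left of diet-only libraries in blue, symbols for replicates 1 to 3, black bars for the mean of 3 libraries, and open symbols at the limit of 3 counts where a library had 0. The first 4 arms are separated from each other in every library, from 51517 CPM on average for miR-192-5p to 1.89 CPM for miR-215-5p, and no arm separates the groups.

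By level the order was miR-192-5p, miR-194-5p, miR-194-2-3p, miR-215-5p and miR-192-3p. Each of these stood above the next in each of the 6 libraries, though the lowest miR-215-5p value, 1.22 CPM, was not far above the highest miR-192-3p value of 0.608 CPM. miR-194-1-3p and miR-215-3p came last at means of 0.0594 and 0.0249 CPM over 6 libraries, and neither exceeded 3 counts in any library, so their order was not detectable at this depth. All of these arms are 21 or 22 bases long, so levels were compared without a correction for length, and ligation preferences of small RNA libraries can shift one sequence against another, which was not tested.

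Together the 6 members took 5.60%, 5.71% and 5.07% of the counts with tofogliflozin and 5.75%, 5.35% and 5.45% on the diet alone. The 95% Wilson intervals of these shares were narrow at this depth, the widest from 5.69% to 5.73% in tofogliflozin replicate 2. miR-192-5p alone made up 93.6% of the members' counts. The group shares were 5.46% ± 0.338 with tofogliflozin and 5.52% ± 0.208 on the diet alone (SD, n = 3 each; exact 2-sided permutation p = 0.8). Their difference of -0.056 percentage points became 0.14 when tofogliflozin replicate 3 was left out, and 0.060 when diet-only replicate 1 was.

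Of the 6 members, 4 passed the filter on low counts, 3 of these had a log2 fold change below 0 and 1 above, and 0 passed an adjusted p of 0.05. Over all 460 miRNAs tested with edgeR, 0% passed, with 23 (5%) at an unadjusted p under 0.05, while DESeq2 called 2 and limma-voom 0. The groups did not overlap for 0 of the 4 tested members, against 55 (12%) of all tested. The median log2 fold change of all tested miRNAs was -0.01.

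**Figure D3:**
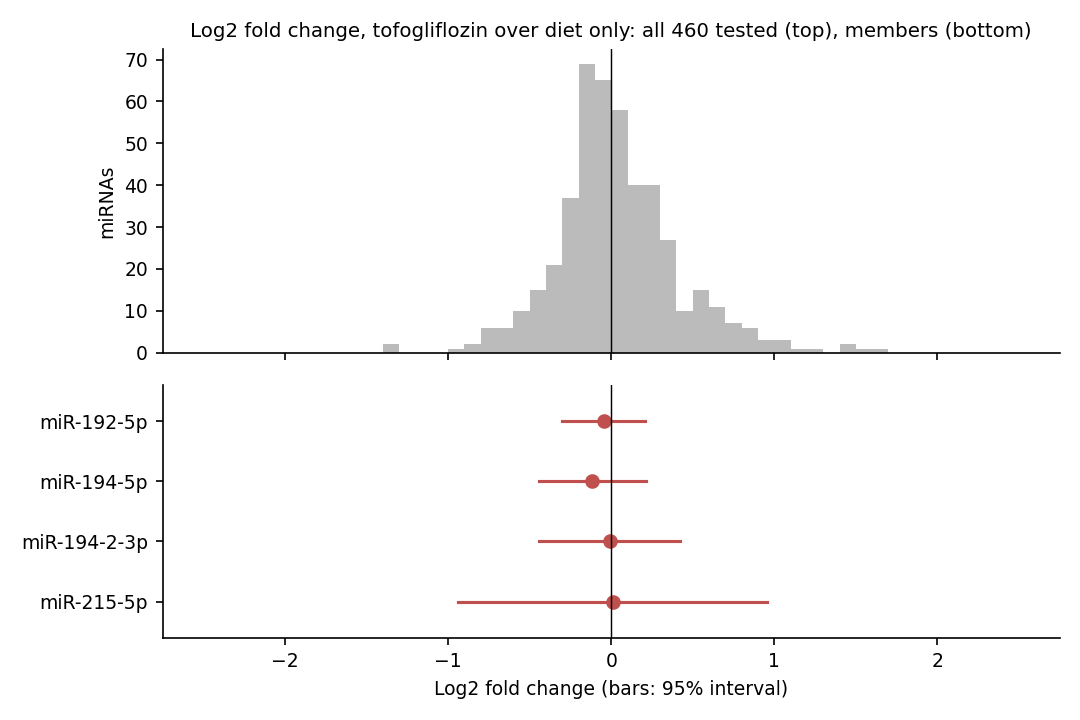
Log2 fold change of tofogliflozin over diet only on the x axis, for all 460 tested miRNAs as a histogram (top) and for the 4 tested members as points with 95% intervals (bottom). Each interval includes 0, and the interval widens as the level falls, from -0.30 to 0.21 for miR-192-5p to -0.94 to 0.96 for miR-215-5p.

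The members also differed in how steady they were between libraries. The SD of log2 CPM over the 6 libraries was 0.105 for miR-192-5p, 0.179 for miR-194-5p, 0.205 for miR-194-2-3p and 0.409 for miR-215-5p, against a median of 0.341 over all tested miRNAs. From the smallest SD upward, miR-192-5p ranked 34 of 460, miR-194-5p 92, miR-194-2-3p 115 and miR-215-5p 285. Within tofogliflozin libraries the coefficient of variation of miR-192-5p was 10.2%, against 3.53% within diet-only libraries. For miR-194-5p these values were 16.0% with tofogliflozin and 6.83% on the diet alone, and for miR-194-2-3p they were 22.4% with tofogliflozin and 5.58% on the diet alone. miR-215-5p went the other way, at 31.6% with tofogliflozin and 34.0% on the diet alone. Without tofogliflozin replicate 2 the coefficients within tofogliflozin libraries were 12.7% for miR-192-5p, 5.12% for miR-194-5p, 8.51% for miR-194-2-3p and 43.4% for miR-215-5p, so that of miR-194-5p then lay below its diet-only value. The tofogliflozin spread of miR-192-5p rests on replicate 3 instead, at 44711 CPM against 53531 and 53837 CPM in replicates 1 and 2. With 3 libraries in each group, the difference in spread between the groups was not tested.

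**Figure D4:**
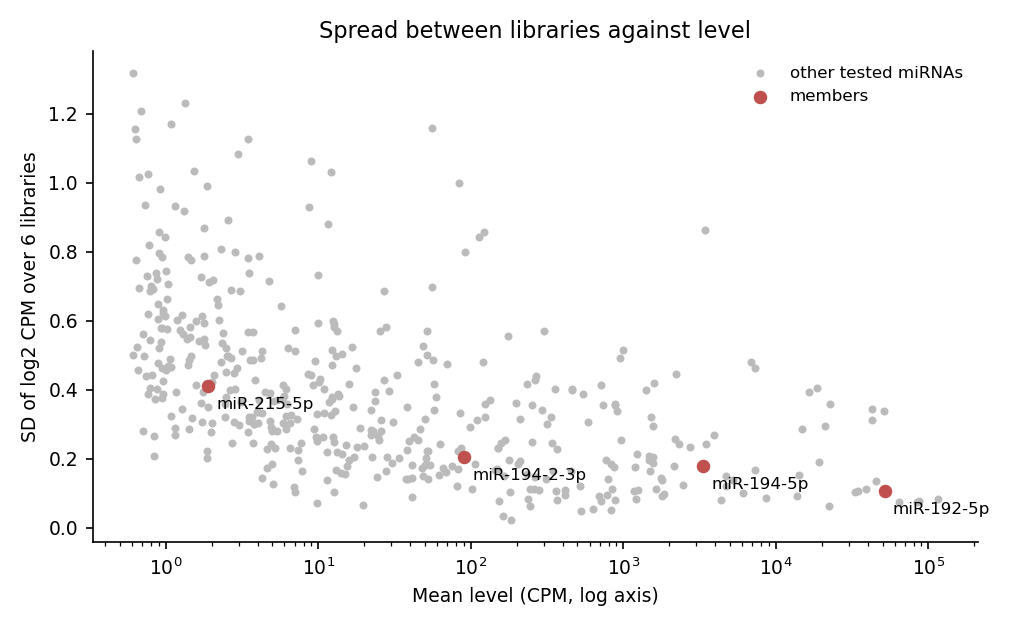
SD of log2 CPM over 6 libraries against mean level in CPM on a log axis, for 4 members in red and the other tested miRNAs in grey. Rare miRNAs spread more, and the members follow that course from an SD of 0.409 for miR-215-5p to 0.105 for miR-192-5p.

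Arms that belong to 1 locus alone were compared between the clusters. The seed shared by miR-192-5p and miR-215-5p was carried almost wholly by miR-192-5p from chromosome 19. miR-215-5p made up 0.00428%, 0.00415% and 0.00272% of the counts of the pair with tofogliflozin and 0.00260%, 0.00307% and 0.00515% on the diet alone. The 95% Wilson intervals ran from 0.00252% to 0.00686% in tofogliflozin replicate 2, the shallowest library, and from 0.00184% to 0.00367% in diet-only replicate 1, the deepest. Over the 6 libraries there were 28497 counts of miR-192-5p for each of miR-215-5p. Whether a few miR-192-5p reads with sequencing errors were counted as miR-215-5p was not tested.

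The 3p arms of the miR-194 hairpins were also unequal. miR-194-2-3p from chromosome 19 had 3215 counts with tofogliflozin and 4694 on the diet alone, summed over 3 libraries each. miR-194-1-3p from chromosome 1 had 3 counts with tofogliflozin and 3 on the diet alone. The ratio over all libraries was 1318, with an exact 95% counting interval of 605 to 3593.

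Reads of the mature miR-194-5p sequence alone cannot be divided between the loci, because that sequence is the same in both. The bases beside it differ between the 2 hairpins. Its row under Mir194-2 held 45258, 17528 and 65073 counts with tofogliflozin and 84252, 44347 and 52493 on the diet alone. The row under Mir194-1 held 42458, 15433 and 62404 counts with tofogliflozin and 79648, 42248 and 49496 on the diet alone. The 2 rows were thus nearly equal in each library, and how reads of the shared sequence were divided or repeated between them was not stated for these tables. The surplus of the Mir194-2 row was 6.19%, 12.0% and 4.10% of that row with tofogliflozin and 5.46%, 4.73% and 5.71% on the diet alone. Tofogliflozin replicate 2 had the highest surplus, with a Wilson interval of 11.5% to 12.4%, and tofogliflozin replicate 3 the lowest, with 3.95% to 4.26%. These intervals hold only if the reads of the Mir194-1 row are repeated within the Mir194-2 row. Had reads been divided between the rows, the intervals would be wider. The surplus as a measure was chosen after its values were seen and is a description. The extremes lay in the same group, on either side of the diet-only libraries. On the CPM scale the surplus was 207, 312 and 148 with tofogliflozin and 203, 153 and 195 on the diet alone.

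Ratios between members of the same library do not depend on size factors, and 7 were tested with exact 2-sided permutation tests, adjusted over the 7 (adjusted p = 0.9 for each). Counts of miR-192-5p per count of miR-194-5p were 16.0, 20.6 and 12.4 with tofogliflozin and 14.6, 16.2 and 14.8 on the diet alone. The tofogliflozin libraries spanned more than the diet-only range on both sides. The mean log2 ratio was higher by 0.08 with tofogliflozin (exact p = 0.8), and lower, at -0.11, without tofogliflozin replicate 2.

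miR-194-5p exceeded miR-194-2-3p, its partner arm, by 40.2, 23.2 and 48.7 times with tofogliflozin and by 39.5, 35.1 and 40.4 times on the diet alone. Tofogliflozin replicate 2 was again the lowest, as its miR-194-5p was the lowest and its miR-194-2-3p the highest of the 6 libraries. The mean log2 ratio differed by -0.10 (exact p = 0.9), and by 0.21 without that library (exact p = 0.2). The arms of miR-192 were far more unequal. miR-192-5p outnumbered miR-192-3p by 99653 times with tofogliflozin (exact 95% counting interval 63813 to 165519) and by 129670 times on the diet alone (84828 to 209477), with counts summed over 3 libraries. On the log2 scale with a pseudocount of 1 the mean difference was 0.12 (exact p = 0.9), and 0.40 with a pseudocount of 0.5, with -0.64 when tofogliflozin replicate 2, where miR-192-3p had 0 counts, was left out and -0.14 when diet-only replicate 2 was.

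miR-192-5p over miR-215-5p, the comparison of the seed relatives, gave ratios of 23350, 24066 and 36753 with tofogliflozin and 38412, 32625 and 19403 on the diet alone. Each group held a library near the top and one near the bottom of this range. The mean log2 ratio differed by -0.10 (exact p = 0.9) and turned above 0 without tofogliflozin replicate 1, tofogliflozin replicate 2 or diet-only replicate 1. For miR-215-5p over miR-194-5p, the pair that chromosome 1 could make together, the difference was 0.17 (exact p = 0.8), and -0.11 without tofogliflozin replicate 2 or -0.059 without diet-only replicate 1. The ratios to miR-215-3p (-0.80, exact p = 0.3) and to miR-194-1-3p (-0.35, exact p = 0.6) rest on 1 and 6 counts of the lower arm in all and are set largely by the pseudocount.

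**Figure D5:**
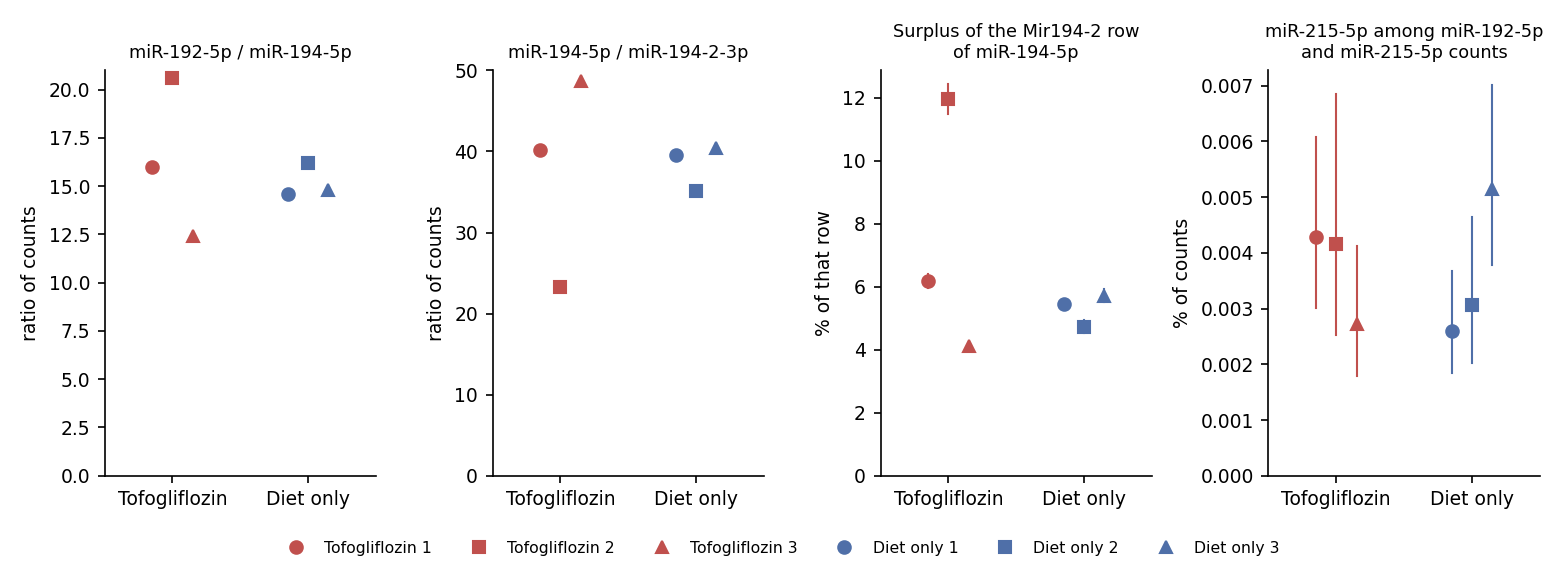
From left to right, counts of miR-192-5p per miR-194-5p, counts of miR-194-5p per miR-194-2-3p, the surplus of the Mir194-2 row of miR-194-5p in percent of that row, and miR-215-5p in percent of the counts of miR-192-5p and miR-215-5p, by library, with 95% Wilson intervals in the 2 panels of percentages. In the first 3 panels tofogliflozin replicates 2 and 3 lie at opposite ends (20.6 and 12.4, 23.2 and 48.7, 12.0% and 4.10%) with the diet-only libraries between them. The intervals of the surplus would be wider if reads were divided between the rows rather than repeated.

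Markers of other tissues were set beside these values. The hepatocyte miRNA miR-122-5p was at 49.3, 245 and 45.8 CPM with tofogliflozin and 78.6, 40.7 and 42.2 CPM on the diet alone, highest in tofogliflozin replicate 2, and miR-122-3p had 0 counts in all 6 libraries. Liver also makes miR-192 and miR-194. In tofogliflozin replicate 2 miR-192-5p lay within the range of the other libraries and miR-194-5p below it. Endothelial markers (3 of 3 in the tables) summed to 16203 to 21622 CPM with tofogliflozin and 18880 to 22979 CPM on the diet alone. Smooth muscle and pericyte markers (2 of 2) summed to 31844 to 58500 CPM with tofogliflozin and 52573 to 57181 CPM on the diet alone. Both of these sums were lowest in tofogliflozin replicate 2, but each is carried by 1 abundant miRNA, miR-126a-3p and miR-143-3p. Of the rarer markers, the endothelial miR-126a-5p was also lowest in that library, at 226 CPM. miR-139-5p, at 917 CPM, and miR-145a-5p, at 423 CPM, were highest in it. Leukocyte markers (5 of 7 names in the tables) summed to 1311 to 1479 CPM with tofogliflozin and 1551 to 2772 CPM on the diet alone. Most of that sum was miR-146a-5p, at 1202 to 1363 CPM with tofogliflozin and 1427 to 2616 CPM on the diet alone (log2 fold change -0.60 ± 0.22, SE; adjusted p = 0.854 by edgeR). The groups overlapped for the other 4 leukocyte markers in the sum. Of these, miR-155-5p was at 0.29 ± 0.37. Below 0 were miR-223-3p (-0.40 ± 0.27), miR-342-3p (-0.19 ± 0.41) and miR-150-5p (-0.13 ± 0.18). The sum does not hold the leukocyte miRNAs miR-142-5p and miR-142-3p, which are in the tables under these names and were tested. Their log2 fold changes were -0.63 ± 0.31 and -0.21 ± 0.27 (SE; adjusted p = 0.854 and 0.877 by edgeR), and the groups overlapped for both. Red blood cell markers (5 of 6) summed to 165 to 451 CPM with tofogliflozin and 91.3 to 326 CPM on the diet alone. The red blood cell sum counts miR-486-5p and miR-3107-5p, whose levels were nearly equal in each library, side by side. Among the tubule markers, miR-204-5p had the smallest p, at 373 to 492 CPM with tofogliflozin and 250 to 291 CPM on the diet alone (log2 fold change 0.69 ± 0.15, SE; adjusted p = 0.387 by edgeR). It, miR-146a-5p, miR-142-5p and miR-142-3p were named after their values were seen. The part of these markers in the members' values was not tested.

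The miRNAs whose profile over the 6 libraries was most like a member's were found by the mean absolute difference of centred log2 CPM, out of 459 candidates. For miR-192-5p they were miR-672-5p (0.043), miR-331-3p (0.049) and miR-98-5p (0.050), against a median of 0.26 over the candidates. These are steady miRNAs, with SDs of 0.047 to 0.089 in log2 CPM. The profile of miR-194-5p was nearest to those of miR-126a-3p (0.031), miR-101a-3p (0.043) and miR-582-3p (0.055), with a median of 0.28. For miR-215-5p they were miR-34a-5p (0.075), miR-3081-3p (0.14) and miR-455-5p (0.16), with a median of 0.41. These distances describe 6 libraries and carry no test.

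Other miRNAs of the pathways known to act on these genes were counted from lists. The lists overlap: miR-143-3p and miR-145a-5p of the p53 list are also the smooth muscle markers, and miR-200a-3p, miR-200b-3p and miR-429-3p of the fibrosis list are also tubule markers. The hepatocyte nuclear factor list shares miR-34a-5p with the p53 list, miR-21a-5p with the fibrosis list and miR-122-5p with the liver markers. Of the 8 p53-linked miRNAs, such as the miR-34 family, 7 were tested and 0 passed, with 5 above 0, 2 below and a median log2 fold change of 0.15, against -0.01 over all tested. The 2 with the smallest p were miR-145a-5p and miR-16-5p. miR-145a-5p averaged 368 ± 52.4 CPM with tofogliflozin and 327 ± 16.4 CPM on the diet alone (SD, n = 3 each). The difference was 0.17 ± 0.14 in log2 (SE; adjusted p = 0.877 by edgeR), 0.064 without tofogliflozin replicate 2 and 0.29 without tofogliflozin replicate 3. miR-16-5p averaged 248 ± 19.4 CPM with tofogliflozin and 275 ± 6.90 CPM on the diet alone (SD, n = 3 each). On the log2 scale it differed by -0.15 ± 0.12 (SE; adjusted p = 0.877 by edgeR), and by -0.081 without tofogliflozin replicate 2. It was lower in each tofogliflozin library than in each diet-only library, which held for 6.96% of all tested miRNAs.

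Of 15 miRNAs linked to TGF-β signalling and renal fibrosis, 12 were tested and 0 passed, with 5 above 0, 7 below and a median of -0.15. The groups did not overlap for 2 of the 12, against 12% of all tested miRNAs. These were miR-429-3p, lower with tofogliflozin, and miR-214-3p, higher with it. miR-382-5p and the epithelial miR-200c-3p had the smallest p in that list, with an adjusted p of 0.854 by edgeR for both. miR-382-5p averaged 0.925 ± 0.300 CPM with tofogliflozin and 1.66 ± 0.458 CPM on the diet alone, a log2 fold change of -0.79 ± 0.41 (SE). This rare miRNA was lowest in tofogliflozin replicate 2, at 0.597 CPM, and its log2 fold change was -0.61 without that library. miR-200c-3p averaged 1059 ± 238 CPM with tofogliflozin and 856 ± 18.6 CPM on the diet alone, a log2 fold change of 0.31 ± 0.17 (SE), which was 0.12 without tofogliflozin replicate 2 and 0.47 without tofogliflozin replicate 3. miR-377-3p had 0 counts in all 6 libraries. Of 5 miRNAs tied to hepatocyte nuclear factors, all were tested and 0 passed, with 2 above 0, 3 below and a median of -0.16. miR-122-5p had a log2 fold change of 1.07 ± 0.65 (SE; adjusted p = 0.854 by edgeR), which was -0.18 without tofogliflozin replicate 2. miR-21a-5p, which 2 of the lists hold, averaged 20601 ± 6654 CPM with tofogliflozin and 24935 ± 2460 CPM on the diet alone (SD, n = 3), and its log2 fold change was -0.28 ± 0.22 (SE; adjusted p = 0.873 by edgeR). It was -0.54 without tofogliflozin replicate 2, -0.045 without tofogliflozin replicate 3, and with diet-only replicate 1 left out it was -0.17.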

How the data were processed

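Small RNA from the renal cortex of 3 tofogliflozin and 3 diet-only samples was prepared with the NucleoSpin miRNA kit, and libraries with a NEBNext small RNA kit, per the labels' protocols. The submitters' processing notes name cutadapt 1.14 and mm10. Not given in the sources used here were the aligner, its mismatch setting, the counter and the miRBase release. Raw whole-number counts without normalization were what the authors deposited, as 1 table of 2033 rows per library. For the 75 mature names with several precursor rows, the largest count per library was used.

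Of 1900 names, the 460 that passed filterByExpr, with a smallest count of 10 and total of 15, were fitted together under R 4.3.3. The 2-sided quasi-likelihood test of edgeR 4.0.16 was used (TMM scaling after the filter, Benjamini-Hochberg adjustment over 460 miRNAs, no covariates). No library lost more than 0.00905% of its counts to the filter. SE is the absolute log2 fold change over the square root of F. CPM used TMM-scaled library sizes, and log2 CPM a prior count of 2. Ratios used a pseudocount of 1. Reads carry no molecular identifiers, so the Wilson and exact counting intervals cover counting error only. Intervals of fold changes come from the edgeR fit and include the spread between libraries. Members and lists were chosen with earlier results of these data known, and the miRNAs named from the 3 pathway lists were those at an unadjusted p under 0.05, or else the 2 with the smallest p. Alternatives covered size factors, filters, row handling, DESeq2 1.42.0, limma-voom (limma 3.58.1), the replicate block and each library left out. Coefficients of variation without tofogliflozin replicate 2 were added after seeing the data.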

Additional observations from a re-analysis of the deposited data

How the results depend on the processing

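No member passed the threshold under any alternative run, and 17 of 59 alternative values of the 4 tested members changed sign, which for effects this near 0 moved them within their intervals. The cause was not tested. With each library left out in turn, log2 fold changes ran from -0.089 to 0.062 for miR-192-5p, -0.19 to 0.0098 for miR-194-5p, -0.20 to 0.14 for miR-194-2-3p and -0.15 to 0.33 for miR-215-5p. miR-194-2-3p was also above 0 with RLE scaling (0.0018), differing rows summed (0.032), every row kept (0.0090) and DESeq2 (0.00015), and miR-215-5p below 0 with upper quartile scaling (-0.024), no low-count filter (-0.013) and limma-voom (-0.026). Without the filter, miR-192-3p was at 0.08 (95% interval -1.61 to 1.77). In that fit the spread was shared over all miRNAs, so this interval is narrower for its SE than those of the main fit. The filter of 10 CPM in 3 libraries left miR-215-5p untested. The count of called miRNAs was 10 with no low-count filter (the fit with shared spread), 2 with DESeq2 and 0 under every other setting. No member was among those called.

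With a library left out, the log2 ratios ran from -0.38 to 0.11 for miR-192-5p over miR-215-5p, -0.11 to 0.26 for miR-192-5p over miR-194-5p, -0.11 to 0.57 for miR-215-5p over miR-194-5p, -0.64 to 0.57 for miR-192-5p over miR-192-3p, -0.33 to 0.21 for miR-194-5p over miR-194-2-3p, -1.21 to -0.21 for miR-215-5p over miR-215-3p and -0.84 to 0.14 for miR-194-2-3p over miR-194-1-3p. The members' share of counts differed by -0.18 to 0.14 percentage points. miR-122-5p ran from -0.18 to 1.4996. It was called with no filter, in the fit with shared spread, and its highest library was tofogliflozin replicate 2 at 245 CPM.

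The deviations of libraries with the same number had correlations of 0.0027, -0.14 and -0.17 over miRNAs, and 0 of 6 libraries correlated best with their own number, so the numbers give no pairing. Under a replicate block, 0 miRNAs were called and 10 had an unadjusted p under 0.05, against 23 without it, and miR-192-5p was at -0.05, miR-194-5p -0.13, miR-194-2-3p -0.03 and miR-215-5p 0.02. Depth limits the rare arms, since a count of 0 allows up to 0.447 CPM in the shallowest library.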
